A study of Mus musculus with 8 samples.

Results

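The cytosolic ribosomal protein genes of a mouse thymic epithelial cell line are described here across 4 combinations of cell line and doxycycline treatment. The genes were taken by name: symbols beginning Rpl or Rps with a number and at most the letter a, x, y or l after it, together with Rplp0, Rplp1, Rplp2 and Rpsa, without pseudogene names ending in -ps and without the S6 kinases. On the array 82 such symbols had 141 probes. The brightest kept probe stood for each gene, and 81 genes with 139 probes were kept among 19023 genes tested, 49 of the large and 32 of the small ribosomal subunit. Of the 81 genes, 80 are annotated as protein coding and 1 is not. Rpl39l was not kept, because its single probe was well above background on 0 of 8 arrays. RNA came from TEC100.4 cells, an immortalized line labelled as cortical thymic epithelium, that carry a doxycycline-inducible mutant form of the transcription factor TFII-I, the product of Gtf2i, in either its δ or its β isoform. The 4 groups were δ mutant cells with doxycycline for 24 h, δ mutant cells without doxycycline, β mutant cells with doxycycline for 24 h and β mutant cells without doxycycline, with 2 arrays each. Groups were taken from the sample titles, since the genotype label of the untreated arrays names the wild-type protein. No group was a parental line or wild-type cells given doxycycline. The drug and the protein it induces therefore act together in every comparison of cells with and without doxycycline. The labels do not say whether each line is a single clone. No label ties the 2 arrays of a group to different cultures, and p-values therefore rest on a spread between arrays that may be technical.

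Ribosomal proteins are assembled with ribosomal RNA in the nucleolus into a large subunit, which forms peptide bonds, and a small subunit, which reads the messenger RNA. Nearly every one is present in a single copy per ribosome, their messenger RNAs are among the most abundant of a growing mammalian cell, and most begin with a pyrimidine tract (5′ TOP) through which mTOR and the RNA-binding protein LARP1 set their translation. TFII-I binds initiator and E-box elements and moves between cytoplasm and nucleus upon growth factor signals. The comparisons ask how the messenger RNAs of this family differed with and without doxycycline in each line, and where the lines differed.

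The starts of 6 genes on which the later results turn are shown first, because ribosomal protein promoters are known for pyrimidine-rich initiators, and initiators are elements that TFII-I can bind. Each line gives the 60 bases before and the 20 bases from the annotated start, 5′ to 3′ on the gene's strand, from RefSeq on GRCm38.p6. Capitals mark any match to CTTTC or CTTCC, and likewise any match to CTCTT or CTTTT, within 20 bases of the start on the gene's strand.
Rpl10: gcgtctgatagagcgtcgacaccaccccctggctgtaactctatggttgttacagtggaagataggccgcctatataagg
Rpl15: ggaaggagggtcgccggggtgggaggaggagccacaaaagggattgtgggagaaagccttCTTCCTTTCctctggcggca
Rpl36a: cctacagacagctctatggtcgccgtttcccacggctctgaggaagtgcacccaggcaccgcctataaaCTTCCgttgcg
Rpl37a: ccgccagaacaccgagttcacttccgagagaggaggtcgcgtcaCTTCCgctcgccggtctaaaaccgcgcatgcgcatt
Rplp2: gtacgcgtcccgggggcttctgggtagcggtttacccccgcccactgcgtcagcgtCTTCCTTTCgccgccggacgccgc
Rps12: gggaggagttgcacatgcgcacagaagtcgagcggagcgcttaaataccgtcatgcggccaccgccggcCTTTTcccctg
These lie at chrX:74270756-74270835 (plus strand) for Rpl10, chr14:18270967-18271046 (minus strand) for Rpl15, chrX:134585594-134585673 (plus strand) for Rpl36a, chr1:72711200-72711279 (plus strand) for Rpl37a, chr7:141447591-141447670 (plus strand) for Rplp2 and chr10:23787190-23787269 (minus strand) for Rps12. Promoter entries were found for 60 of the 81 genes, with 72 starts. The pyrimidine letters stood near 47.2% of these starts, against 20.4% of all 32851 starts in the table. In the window of 250 bases before to 50 bases after the start, searched on both strands, CCGGAAG, the letters of an ETS site, stood at 34.7% of ribosomal protein starts against 8.86% of all starts, and its reverse complement contains CTTCC. AAGATGGC, the letters of a YY1 site, stood at 9.72% against 2.75%, and CACGTG, the E-box, at 11.1% against 7.15%. TATAAA was found at 9.72% of ribosomal protein starts against 13.6% of all starts. A match describes these letters and is not a measured site.

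All 8 arrays lay on 1 slide, with every doxycycline array in the first row and every untreated array in the second, so slide row and treatment cannot be told apart. The number of probes well above background was 43424 to 45156 on the doxycycline arrays and 39578 to 40759 on the untreated arrays, and no probe was saturated. One array stood apart: on untreated δ replicate 1, 79 of 1008 tiles of neighbouring spots deviated by more than 0.3 on the log2 scale, against 0 to 7 on the other arrays, and 21 of the 81 ribosomal protein probes had a spot in such a tile. It correlated with its replicate at r = 0.965 over all genes tested, where the other pairs reached 0.994 to 0.997. Of 14 listed cortical thymic epithelial markers 10 were kept, with a summed linear level of 67.8 to 97.0 per array. Ctsl carried most of this sum, at 5.65 to 6.09 on the log2 scale, while Foxn1, Dll4, Ly75, Pax1 and Prss16 read no more than -2.43. Krt18, Cxcl12 and Ccl25 lay between, at 0.52 to 3.25, as did Krt8, at 1.8 to 2.2 on δ arrays and 3.9 to 4.1 on β arrays. In δ minus β, 4 of the 10 kept cortical markers lay above zero with doxycycline and 4 without. Psmb11, Enpep and Cd83, which help define that cell type, were well above background on no array, and Epcam only on untreated δ replicate 1. The 6 kept medullary markers of 9 listed had a summed level of 5.14 to 6.27 on δ arrays and 30.9 to 39.3 on β arrays. Krt14 carried most of it, at no more than 1.36 on δ arrays and 4.74 to 5.14 on β arrays on the log2 scale, and without doxycycline 3 of the 6 markers lay above zero in δ minus β. All 8 listed fibroblast markers were kept, with a summed level of 520 to 642, and of 14 listed thymocyte markers 10 were kept, Cd4 the brightest at 3.74 to 4.82 on the log2 scale, while Ptprc, Rag1, Cd2 and Cd3g were well above background on no array.

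The ribosomal protein probes were bright. Of the 81 genes, 56 lay in the brightest 1% of genes tested and 77 in the brightest 5%. Rpl37, Rpl3l, Rps4l and Rpl10l lay outside and were dim, 3 of them between percentiles 0 and 20 of brightness and 1 between 20 and 40. Probe brightness depends on the probe as well as on the transcript, so these ranks do not order the messenger RNAs. Levels are given below as log2 signal relative to each array's 75th percentile, and fold changes are differences of these. Chromosome 7 held 14 of them, the most of any chromosome. In these bulk samples, fewer cells of a type and less RNA per cell cannot be told apart.

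Doxycycline was accompanied by a small upward displacement of the family in both lines, within which no single gene passed the test. In the δ line 70 of 81 genes lay above zero with a median log2 fold change of 0.11 (1.08-fold), beside 50.1% of all genes and a median of 0.00. In the β line 74 of 81 lay above zero with a median of 0.21 (1.15-fold), beside 55.8% of all genes and a median of 0.04. Under quantile normalization the medians were 0.05 in the δ line (60 of 81 above zero) and 0.01 in the β line (42 of 81), so in the β line the displacement depended on how the arrays were scaled. The number of genes past an adjusted p of 0.05 in limma was 0 of 81 in the δ line, where 0.0736% of all genes passed, and 0 of 81 in the β line, where 0.247% passed. At an unadjusted p under 0.05 there were 4 genes in the δ line, all higher, beside 8.69% of all genes in that direction, and 14 in the β line, all higher, beside 9.55%.

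The untreated replicates differed from each other by about as much as the groups did. The median deviation of the 81 genes from their own 8-array means was 0.07 and 0.08 on the δ arrays with doxycycline, against 0.03 and -0.11 on the δ arrays without. It was 0.04 and 0.12 on the β arrays with doxycycline, against -0.22 and -0.03 on the β arrays without. All 4 doxycycline arrays were above zero, and 1 untreated δ array, at 0.03, lay close to them. Without untreated δ replicate 2 the median in the δ line was 0.04 (48 of 81 above zero), and without replicate 1, the array with the deviant tiles, 0.18 (76 of 81). Without untreated β replicate 1 the median in the β line was 0.11 (57 of 81), and without replicate 2 it was 0.31 (77 of 81).

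**Figure D1:**
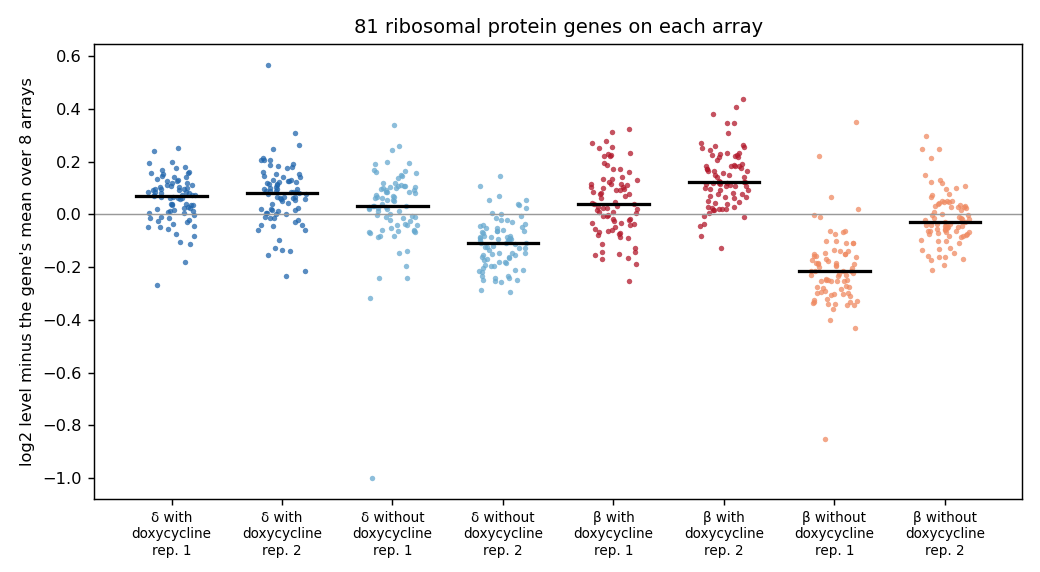
Each point is 1 of 81 ribosomal protein genes on 1 array (x axis: group and replicate), plotted as its log2 level minus the mean of that gene over the 8 arrays (y axis), with a black line at the median of the genes. The medians on the 4 doxycycline arrays lie between 0.04 and 0.12, and those on the 4 untreated arrays between -0.22 and 0.03; these positions hold for scaling to the 75th percentile, and quantile normalization brings the β line's median shift to 0.01.

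Genes of both subunits lay above zero. In the δ line the large subunit had 44 of 49 genes above zero with a median of 0.12, and the small subunit 26 of 32 with a median of 0.09. In the β line the large subunit had 46 of 49 above zero with a median of 0.19, and the small subunit 28 of 32 with a median of 0.26. Both doxycycline arrays exceeded both untreated arrays for 41 of 81 genes in the δ line, where 30.4% of all genes did so, and for 48 of 81 genes in the β line, where 26.6% did. The reverse order held for 3 genes in the δ line, Rpl7 and Rpl23a among them, beside 27.6% of all genes, and for 0 in the β line, beside 20.3%. In both lines at once the doxycycline arrays were higher for 22 genes, beside 11.3% of all genes, and lower for 0, beside 10.6%. These 22 included Rplp0, Rplp1 and Rplp2, the whole lateral stalk that recruits translation factors to the large subunit, and Rpsa, a small-subunit protein also known as the laminin receptor. Second kept probes of 2 of them did not have this order in the δ line: A_55_P2038077 of Rpsa read 7.53 and 7.53 with doxycycline against 7.68 and 7.56 without, and A_55_P2933544 of Rplp1 read 7.16 and 7.21 against 7.23 and 7.09. The 2 lines share no array, but slide row went with treatment in both, and limma pooled the spread over all groups. The lines are therefore not independent repeats.

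**Figure D2:**
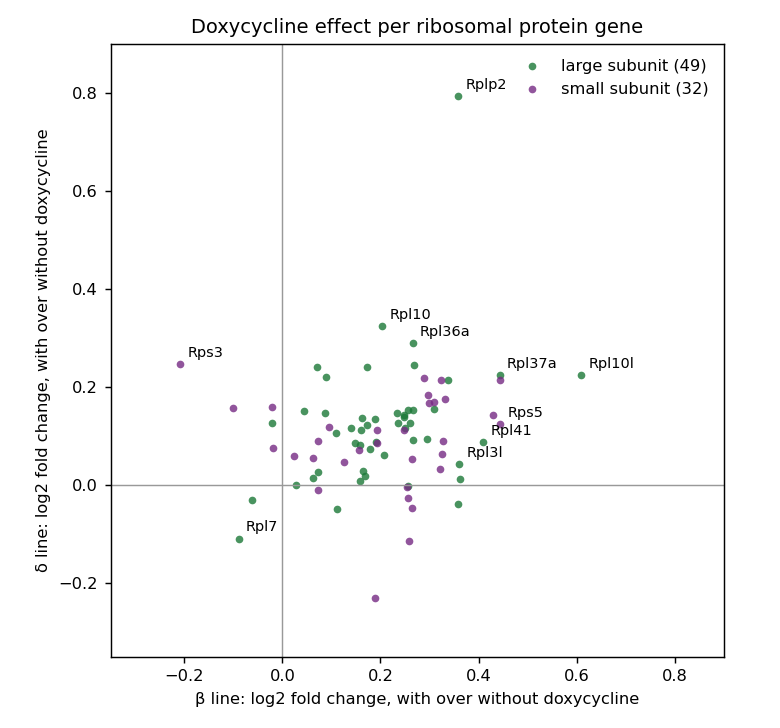
Each point is a ribosomal protein gene, with its log2 fold change with over without doxycycline in the β line (x axis) and in the δ line (y axis), large-subunit genes in green and small-subunit genes in purple. Above zero in both lines lie 65 of 81 genes under 75th-percentile scaling; Rplp2, at 0.79 in the δ line, stands farthest out and rests on 1 untreated δ array.

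Among the large-subunit genes of the δ line, Rpl10 had the smallest p. It encodes a protein near the peptidyl transferase centre that joins the large subunit late in its assembly, and its start, shown above, holds none of the pyrimidine letters. Rpl10 read 8.11 and 8.12 with doxycycline and 7.76 and 7.82 without, so the δ groups did not overlap. Its log2 fold change was 0.33 ± 0.10 (SE), with an adjusted p of 0.268 in limma. In the β line the same probe read 7.94 and 8.01 with doxycycline and 7.68 and 7.86 without, a log2 fold change of 0.20 ± 0.10 with an adjusted p of 0.345. Its spot lay in a deviant tile of untreated δ replicate 1.

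Rplp2, an acidic stalk protein, had the widest difference of the family in the δ line, and that difference came from 1 array. The δ arrays read 8.53 and 8.54 with doxycycline and 7.29 and 8.19 without. The low value belonged to untreated δ replicate 1, where the spot lay in a deviant tile. The log2 fold change was 0.79 ± 0.28 (adjusted p = 0.30); without that array it was 0.34 (adjusted p = 0.436), and without untreated δ replicate 2 it was 1.25 (adjusted p = 0.00266). In the β line Rplp2 read 8.54 and 8.70 with doxycycline and 8.19 and 8.34 without, a log2 fold change of 0.36 ± 0.28 (adjusted p = 0.563).

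Rpl36a, a protein near the exit site of the large subunit, read 7.20 and 7.25 in δ cells with doxycycline and 6.96 and 6.90 in δ cells without. The groups did not overlap, and the log2 fold change was 0.29 ± 0.11 (adjusted p = 0.319). Among genes below zero in the δ line were Rpl7, of the large subunit, at -0.11 and Rps18, a small-subunit protein at the contact between the subunits, at -0.11, with adjusted p of 0.669 and 0.715 in limma.

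In the β line the smallest p belonged to Rpl37a, a zinc-finger protein of the large subunit. Rpl37a read 8.24 and 8.28 with doxycycline and 7.71 and 7.93 without, which did not overlap. The log2 fold change was 0.44 ± 0.11 (adjusted p = 0.129). In the δ line it read 8.19 and 8.21 with doxycycline and 8.05 and 7.90 without, a log2 fold change of 0.22 ± 0.11 (adjusted p = 0.389). Its spot too lay in a deviant tile of an array.

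Among small-subunit genes of the β line, Rps28, whose protein lies in the head of the small subunit by the messenger RNA exit, read 8.26 and 8.40 with doxycycline and 7.82 and 7.98 without, a log2 fold change of 0.43 ± 0.13 (adjusted p = 0.175). Its groups did not overlap. Of the 7 genes below zero in the β line, Rps3, which lines the messenger RNA entry of the small subunit and also acts in DNA repair, lay lowest at -0.21 ± 0.15 (adjusted p = 0.53). Rps3 read 6.08 and 6.32 with doxycycline and 6.55 and 6.26 without, so its groups overlapped. Rps15 followed at -0.10 and Rpl7 at -0.09, with adjusted p of 0.783 and 0.775 in limma.

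**Figure D3:**
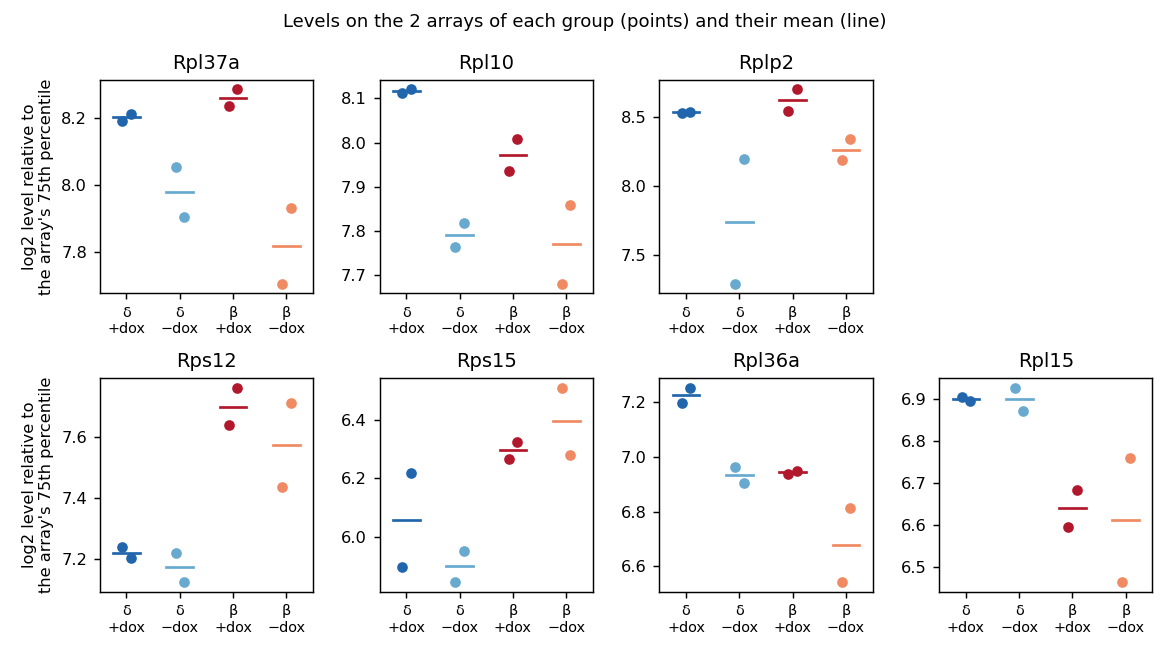
Log2 level relative to the array's 75th percentile (y axis) of 7 ribosomal protein genes on the 2 arrays of each group (points), with the group mean (line); δ groups are at the left in blue, β groups at the right in red, and each y axis has its own range. Rpl37a, Rpl10 and Rplp2 are shown for doxycycline, with 1 low untreated δ value for Rplp2; Rps12 and Rps15 lie lower and Rpl36a and Rpl15 higher in δ than in β cells, and of these Rps12 with doxycycline alone passed the test, not under every scaling.

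Averaged over both lines, 78 of 81 genes lay above zero (median 0.15), beside 53.9% of all genes (median 0.02). The number past the threshold was again 0 of 81, beside 3.12% of all genes, and 19 had an unadjusted p under 0.05, all higher, beside 12.2% of all genes in that direction. Rpl37a and Rpl10 led with 0.33 ± 0.08 and 0.26 ± 0.07, and adjusted p of 0.0809 and 0.0997 in limma. The 3 genes below zero included Rpl7 at -0.10 and Rpl23a, at the peptide exit of the large subunit, at -0.05. The standard error of a single gene had a median of 0.09 in this comparison and 0.13 within a line.

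Other bright genes had like medians in the β line. There the 135 other genes of the brightest 1% had a median log2 fold change of 0.21, with 92.6% above zero, which is the size seen for the ribosomal protein genes. The 740 other genes between the 95th and 99th percentile had a median of 0.05. In the δ line the other genes of the brightest 1% had a median of 0.04, with 60.0% above zero, and those between the 95th and 99th percentile a median of 0.06. Of 10 kept thymocyte markers 9 lay above zero in the β line (median 0.41), with a summed linear level of 23.3 and 34.5 with doxycycline against 22.5 and 20.8 without, and 5 lay above zero in the δ line (median -0.02). Cd4 carried most of these sums, and its own change with doxycycline on the log2 scale was 0.06 for δ cells and 0.37 for β cells (adjusted p = 0.919 and 0.464 in limma). Of the thymocyte markers, Ptcra and Rag2, at 0.45 and 0.55 in the β line, were well above background on neither untreated β array. Both passed the filter through doxycycline arrays, so the filter favoured a rise in them. In the β line other genes between percentiles 0 and 20 of brightness also had a median of 0.17, with 71.5% above zero. The part of brightness and of the thymocyte markers in the displacement was not tested.

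**Figure D4:**
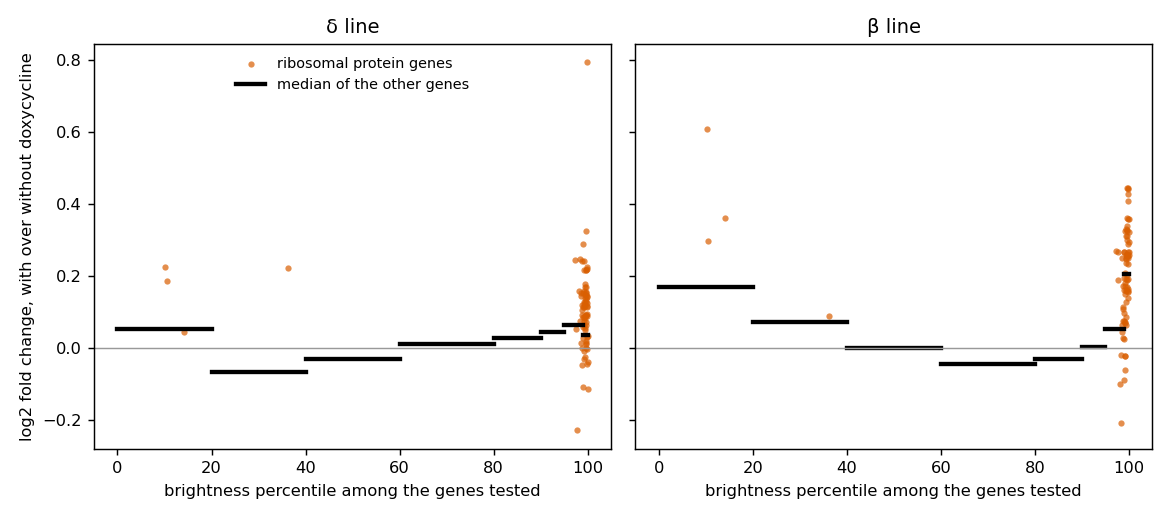
Log2 fold change with over without doxycycline (y axis) against the brightness percentile of the gene's probe (x axis), for the δ line at the left and the β line at the right; orange points are ribosomal protein genes and black bars the medians of the other genes in each brightness range. At the bright end the bar stands at 0.04 in the δ line and 0.21 in the β line, under 75th-percentile scaling; quantile normalization brings the ribosomal protein median to 0.05 in the δ line and 0.01 in the β line.

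**Figure D5:**
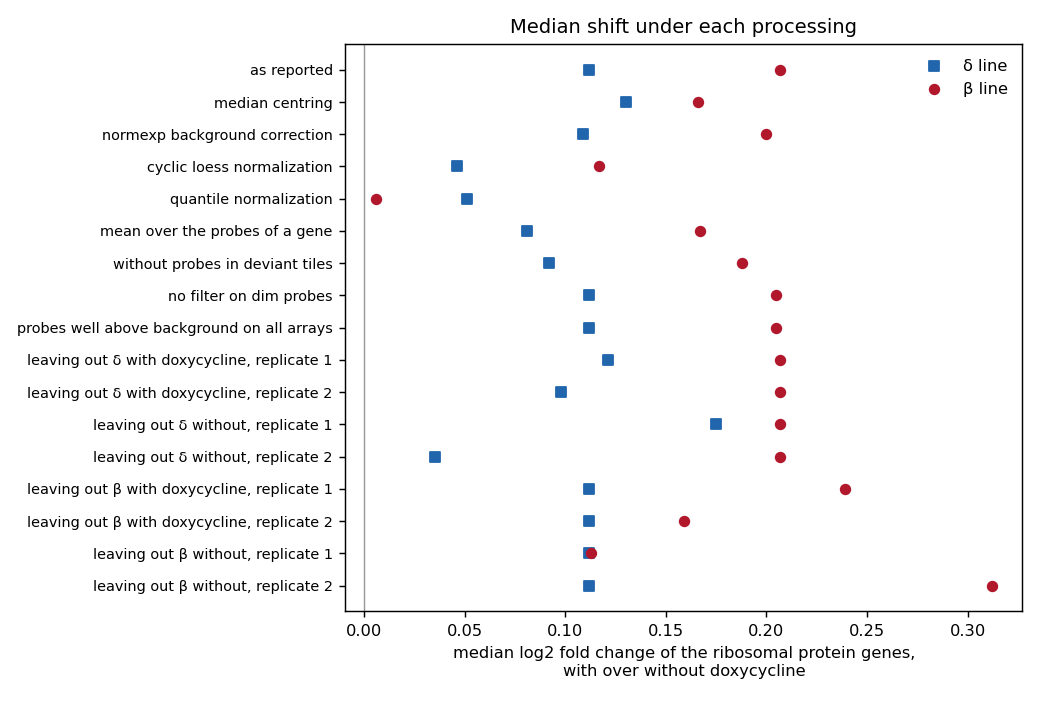
Median log2 fold change with over without doxycycline of the ribosomal protein genes (x axis) under each processing (y axis), squares for the δ line and circles for the β line. The δ median lies between 0.04 and 0.18 and the β median between 0.01 and 0.31, with the ends set by single untreated arrays and, for the low β end, by quantile normalization.

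No ribosomal protein gene passed the test of a difference between the lines in its response. The difference of the doxycycline effect, δ minus β, had a median of -0.11 with 17 of 81 genes above zero, beside 50.2% of all genes, and its median was 0.04 under quantile normalization, the opposite sign. By limma's interaction test 0 of 81 genes passed, beside 0.00526% of all genes, and 0 had an unadjusted p under 0.05, beside 7.53%. Rps3 came nearest, at 0.46 ± 0.21 (adjusted p = 0.65), from log2 fold changes of 0.25 in the δ line and -0.21 in the β line. For no gene did the doxycycline arrays lie above the untreated arrays in one line and below them in the other, an order seen either way round in 2.98% and 3.06% of all genes. A standard error of 0.18 for the median gene leaves room for differences of a size like the effects themselves.

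Differences between the lines were small for most of the family. With doxycycline, the median absolute difference of δ minus β was 0.11 on the log2 scale for the ribosomal protein genes and 0.24 for all genes; without doxycycline it was 0.11 against 0.23. Differences beyond 0.5 were found for 0 of 81 genes with doxycycline, beside 19.4% of all genes, and for 2 without, Rplp2 and Rpl10l, beside 21.9%. With doxycycline 1 of 81 genes passed the test, beside 15.3% of all genes, and 4 had an unadjusted p under 0.05, beside 31.9%. Without doxycycline 0 of 81 passed, beside 13.2%, and 2 had an unadjusted p under 0.05, beside 27.8%. Other bright genes also gave few calls. Among the 135 other genes of the brightest 1%, 1 passed higher and 8 lower in δ with doxycycline, and 1 higher and 3 lower without. Their quartiles of δ minus β were -0.355 and -0.074 with doxycycline, beside -0.129 and 0.085 for the ribosomal protein genes. Without doxycycline they were -0.117 and 0.065, beside 0.011 and 0.156. The median difference was -0.03 with doxycycline, turning to 0.06 under median centring, 0.11 under quantile normalization and 0.004 under normexp background correction, and 0.08 without doxycycline.

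Rps12 was the gene that passed. Its protein sits in the beak of the small subunit and in Drosophila is needed for cell competition. With doxycycline the δ arrays read 7.24 and 7.20 and the β arrays 7.64 and 7.76. Without doxycycline the δ arrays read 7.22 and 7.12 and the β arrays 7.44 and 7.71. Every δ array was below every β array in both conditions, an order that 2 ribosomal protein genes showed, beside 15.2% of all genes. The log2 difference was -0.48 ± 0.12 with doxycycline (adjusted p = 0.0479) and -0.40 ± 0.12 without (adjusted p = 0.0858). The call with doxycycline was narrow: the adjusted p was 0.0612 under normexp background correction, 0.189 under median centring and 0.0515 with every probe tested on its own. Leaving out any of the 4 doxycycline arrays raised it to between 0.116 and 0.223, and leaving out either untreated δ array to 0.0517. Under quantile normalization and cyclic loess Rps12 passed in both conditions, with differences of -0.45 (adjusted p = 0.0202) and -0.42 (adjusted p = 0.0119) without doxycycline. Its log2 fold change with doxycycline was 0.05 ± 0.12 in the δ line and 0.13 ± 0.12 in the β line.

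Rps15, in the head of the small subunit near the decoding centre, was the other gene with every δ array below every β array. It read 5.89 and 6.22 in δ and 6.27 and 6.32 in β cells with doxycycline, and 5.84 and 5.95 in δ and 6.51 and 6.28 in β cells without. The log2 difference was -0.24 ± 0.14 with doxycycline (adjusted p = 0.307) and -0.50 ± 0.14 without (adjusted p = 0.0751). Rpl3l, a paralog used mainly in striated muscle, differed by -0.38 ± 0.13 with doxycycline (adjusted p = 0.111) and by -0.06 ± 0.13 without, at a dim probe. Rps20 followed with -0.31 ± 0.13 with doxycycline (adjusted p = 0.153) and 0.00 ± 0.13 without.

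In the other direction, 5 genes had every δ array above every β array in both conditions, beside 20.7% of all genes: Rpl12, Rpl15, Rpl36a, Rps14 and Rps27. A second kept probe of Rpl12, A_55_P1952690, did not have this order without doxycycline. It read 6.64 and 6.81 in δ against 6.74 and 6.80 in β cells. Rpl36a read 7.20 and 7.25 in δ and 6.94 and 6.95 in β cells with doxycycline, and 6.96 and 6.90 in δ and 6.54 and 6.81 in β cells without. Its difference was 0.28 ± 0.11 with doxycycline (adjusted p = 0.152) and 0.26 ± 0.11 without (adjusted p = 0.208), and all 3 of its probes lay higher in δ. Under quantile normalization Rpl36a passed with doxycycline, at 0.36 (adjusted p = 0.0332). Rpl15, a protein bound deep in the large subunit's RNA, read 6.90 and 6.89 in δ and 6.60 and 6.68 in β cells with doxycycline, and 6.93 and 6.87 in δ and 6.46 and 6.76 in β cells without. Its difference was 0.26 ± 0.12 with doxycycline (adjusted p = 0.197) and 0.29 ± 0.12 without (adjusted p = 0.185), and its second probe gave 0.31 and 0.40.

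Rps24, whose transcripts end in alternatively spliced forms, had 3 probes on 3 annotated transcripts that gave different answers. The probe A_55_P1955243 gave a δ minus β difference of 0.40 ± 0.11 with doxycycline (adjusted p = 0.0622) and 0.38 ± 0.11 without (adjusted p = 0.073) in the single-probe fit. A_55_P1993880 gave 0.24 ± 0.16 and 0.33 ± 0.16. The brightest, A_55_P2032600, which stood for the gene, gave -0.01 ± 0.13 and 0.06 ± 0.13. None of the 3 passed, and the difference between the probes was not tested. Over the family, 44 genes had several kept probes, and all probes of a gene had the same sign for 26 genes in the doxycycline comparison of the δ line and for 30 in that of the β line. With every probe tested on its own, 0 of the 139 ribosomal protein probes passed in any of the 6 comparisons in limma. Of all 27215 probes, 0.0625% passed for doxycycline in the δ line, 0.239% in the β line, 3.24% over both lines and 0.00367% for the difference of the effect, where 6, 18, 26 and 1 ribosomal protein probes had an unadjusted p under 0.05. In the same order, these were 4.32%, 12.9%, 18.7% and 0.719% of the ribosomal protein probes, beside 14.7%, 19.0%, 23.3% and 7.27% of all probes at that threshold. For δ against β, 13.5% of all probes passed with doxycycline and 12.6% without, and 7 and 5 ribosomal protein probes had an unadjusted p under 0.05, or 5.04% and 3.60%, beside 30.4% and 28% of all probes.

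Of the paralogs, Rpl10l, Rpl3l and Rps4l were read by dim probes, at mean levels of -4.62, -4.21 and -4.57 on the log2 scale, and Rps27l by a brighter one at 5.79. Rpl32l, at 7.55, gave log2 fold changes with doxycycline of 0.09 in the δ line and 0.19 in the β line. Without probe sequences it could not be checked which paralogs each probe matches. Rpl10l, the testis paralog of X-linked Rpl10, was well above background on 7 of 8 arrays and read -4.55 and -4.05 in δ cells with doxycycline, -4.28 and -4.77 in δ cells without, -4.45 and -4.60 in β cells with and -5.47 and -4.79 in β cells without. Its log2 fold change with doxycycline was 0.22 ± 0.29 in the δ line and 0.61 ± 0.29 in the β line (adjusted p = 0.717 and 0.342 in limma). Rpl3l gave 0.04 ± 0.13 and 0.36 ± 0.13 in the same order, and its partner Rpl3 0.14 and 0.19. Rps4l gave 0.18 ± 0.12 and 0.30 ± 0.12, and Rps4x, the X-linked small-subunit gene, 0.12 and 0.10. Rps27l, a p53 target in human and mouse cells, gave 0.05 ± 0.20 and 0.26 ± 0.20, and Rps27 0.17 and 0.31. Rpl39, whose testis paralog Rpl39l was not kept, gave 0.01 ± 0.14 and 0.36 ± 0.14. None of these passed.

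Members known for roles outside the ribosome did not pass in either line. Rpl5, Rpl11 and Rpl23, which bind Mdm2 and thereby raise p53, had log2 fold changes with doxycycline of 0.24, 0.03 and 0.02 in the δ line and 0.17, 0.16 and 0.17 in the β line. Rps6, the substrate of the S6 kinases, gave 0.16 in the δ line and -0.02 in the β line. Rps19 and Rps14, whose loss causes anaemia in humans, gave 0.06 and 0.07 in the δ line and 0.33 and 0.16 in the β line. Rpl22, needed for αβ T cell development in mice, gave 0.24 and 0.27, with a spot in a deviant tile. Rpl26, which binds p53 messenger RNA, gave 0.15 and 0.27, and Rpl38, needed for translation of Hox messenger RNAs in mouse embryos, 0.15 and 0.23. Rps27a, made as a fusion with ubiquitin, gave 0.11 and 0.19, Rpl13a, part of an interferon-induced silencing complex in human cells, 0.13 and -0.02, and Rpsa 0.17 and 0.30. The stalk genes Rplp0 and Rplp1 gave 0.12 and 0.13 in the δ line and 0.14 and 0.24 in the β line. The smallest adjusted p among these genes in limma was 0.426 in the δ line, for Rpl22, and 0.245 in the β line, for Rpsa.

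Genes that work with ribosomal proteins were looked at through lists. Of all genes, 50.1% lay above zero with doxycycline in the δ line and 55.8% in the β line. The β share varied with brightness among genes outside the ribosomal protein family. It was 71.5% between percentiles 0 and 20, 41.7% between 60 and 80 and 43.7% between 80 and 90. The part of brightness in the list values was not tested. At an unadjusted p under 0.05 in limma stood 15% and 18.2% of all genes in the same order. Over both lines, 2 of the 93 measured list genes (2.15%) passed the adjusted threshold, beside 3.12% of all genes. Of 8 measured ribosomal proteins and partners that the name rule leaves out, such as Fau and Rack1, 5 lay above zero with doxycycline in the δ line (median 0.00) and 6 in the β line (median 0.15), and 0 passed in either, with 0 and 3 at an unadjusted p under 0.05 in limma. Of 26 measured translation factors and other transcripts with a 5′ pyrimidine tract, 23 lay above zero with doxycycline in the δ line (median 0.17) and 20 in the β line (median 0.08), and 0 passed in either, with 5 and 2 at an unadjusted p under 0.05 in limma. Of 20 regulators of ribosomal protein translation and signalling, 10 lay above zero in the δ line (median 0.00) and 2 in the β line (median -0.13). Over both lines 1 passed: Rps6ka1, an S6 kinase of the RSK family, fell by 0.42 on the log2 scale (adjusted p = 0.0332), and without single arrays its adjusted p reached 0.186. Of 23 chaperones and export factors of ribosomal proteins, 14 lay above zero in the δ line (median 0.03) and 3 in the β line (median -0.13), and 0 passed in either, with 3 and 2 at an unadjusted p under 0.05 in limma. Of 16 factors reported at ribosomal protein promoters, 12 lay above zero in the δ line (median 0.10) and 7 in the β line (median -0.09), and over both lines Myc, a general activator of ribosome synthesis, fell by 0.38 (adjusted p = 0.0387, up to 0.213 without single arrays).

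Between the lines, 7 of the 93 measured genes of these lists (7.53%) passed the test with doxycycline and 9 (9.68%) without, beside 15.3% and 13.2% of all genes. They were 3 and 4 of the 23 chaperones and export factors, 2 and 2 of the 20 regulators, 2 and 2 of the 16 promoter factors, Gtf2i included, 0 and 1 of the 8 genes outside the name rule, and 0 and 0 of the 26 transcripts with a 5′ pyrimidine tract, of which 3 and 1 had an unadjusted p under 0.05 in limma. At that unadjusted threshold stood 31.9% and 27.8% of all genes. Ltv1, an assembly factor of the small subunit, was lower in δ cells by -0.67 with doxycycline (adjusted p = 0.0295) and by -0.93 without (adjusted p = 0.0098). Mrto4, an assembly factor of the large-subunit stalk, was lower by -0.41 with doxycycline (adjusted p = 0.0319) and by -0.42 without (adjusted p = 0.0334). Rpf2, which brings Rpl5 and Rpl11 to the large subunit, was lower by -0.55 without doxycycline (adjusted p = 0.0194), as were Xpo1, the export receptor, by -0.38 (adjusted p = 0.0476) and Rps19bp1 by -0.53 (adjusted p = 0.0213). Myc was lower by -0.76 with doxycycline (adjusted p = 0.00396) and by -0.77 without (adjusted p = 0.00336). Among regulators, Mdm2 at -0.46 (adjusted p = 0.0336) and Eif4e, the cap-binding protein, at -0.47 (adjusted p = 0.0355) were lower without doxycycline. Tsc1, a brake on mTOR, at 0.54 (adjusted p = 0.0337), Rps6kb1, the main S6 kinase, at 0.36 (adjusted p = 0.0434) and Aamp at 0.43 (adjusted p = 0.0462) were higher in δ cells with doxycycline. Only Ltv1 and Myc without doxycycline passed when any 1 array was left out, while Myc with doxycycline reached 0.0536 and the others lost the call without at least 1 array, Xpo1 without any 1 of the 8. Each of these calls, apart from Myc and Gtf2i with doxycycline and Ltv1 and Myc without, was also lost under median centring, where the adjusted p of the lost calls was 0.0521 to 0.186. Normexp background correction ended those of Mrto4 (0.0968 with doxycycline and 0.152 without), Aamp (0.0895), Xpo1 (0.141), Mdm2 (0.0862), Eif4e (0.118) and Rps19bp1 (0.143), and quantile normalization that of Rps6kb1 (0.0987). In the fit on the 4 untreated arrays alone Ltv1 reached 0.0888 and Myc 0.0597.

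Gtf2i itself, the gene whose product was altered, read 5.28 and 5.26 in δ and 4.58 and 4.66 in β cells with doxycycline, and 5.29 and 5.07 in δ and 4.39 and 4.63 in β cells without. It was higher in δ cells by 0.65 ± 0.12 with doxycycline (adjusted p = 0.0207) and by 0.67 ± 0.12 without (adjusted p = 0.0195), though by 0.18 (adjusted p = 0.30) with doxycycline when its probes were averaged. With doxycycline its log2 fold change was 0.09 ± 0.12 in the δ line and 0.11 ± 0.12 in the β line, and neither passed. The files do not say whether this probe reads the introduced copy.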

How the data were processed

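The files hold one-colour Agilent scanner output for 8 mouse 60K arrays, per the labels from 200 ng of total RNA each. The intensity the authors deposited (processed signal) is background-subtracted and spatially detrended by Agilent's software Feature Extraction (version 11.5.1.1 in the file headers); the submitters' processing notes write 11.5.11. Spots of a probe were averaged, control spots were left out, and log2 intensity minus each array's 75th percentile was used. Probes well above background on both arrays of a group were kept, named through their accessions by the RefSeq gene table, and the brightest stood for its gene. limma 3.58.1 in R 4.3.3 fitted all 4 groups (4 residual degrees of freedom), with Benjamini-Hochberg adjustment over 19023 genes at 0.05, and was tested on simulated data. Named genes were those passing, up to 3 per direction with the smallest p per comparison, paralogs, and members with roles outside the ribosome; Rps24, Rpl12, Rps14 and Rps27 in the line comparison were chosen after their values were seen. Members and lists were chosen with earlier results of these data known. The number of arrays limits the precision. Some members are not reported here by name.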

Additional observations from a re-analysis of the deposited data

Results flagged for a closer look

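Among the 93 measured genes of the partner lists, 7 (7.53%) had both doxycycline arrays above both untreated arrays in the δ line and below them in the β line, and 0 had the reverse order. Over all genes 2.98% and 3.06% had these orders, and of the 81 ribosomal protein genes 0 had either. The difference of the doxycycline effect, δ minus β, was 0.65 for Snhg5, a host gene of small nucleolar RNAs, 0.42 for Max, the partner of Myc, and 0.38 for Eif4e. It was 0.28 for Rpf2, 0.27 for Xpo1, 0.27 for Gabpa and 0.26 for Sp3, the last pair named after their values were seen. After adjustment in limma's interaction test over all genes none of the 7 passed, with adjusted p of 0.649 to 0.664. Among genes outside the ribosomal protein family, the difference of the effect also varied with brightness. Its median was 0.08, with 64.5% above zero, between percentiles 60 and 80, and -0.10, with 40.9%, between 0 and 20. The part of brightness in the share of 7.53% was not tested.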

How the results depend on the processing

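The 141 values of named genes were recomputed under 19 alternatives, giving 2621 values, of which 0 reversed a call, 61 changed sign without one, 138 lost the call and 9 gained it. The 83 values of ribosomal protein genes among them gave 1540, of which 49 changed sign without a call, 9 lost it and 6 gained it. The 0.05 calls of ribosomal protein genes for δ against β with doxycycline numbered 1 as reported, 0 under normexp background correction, median centring, no filter on dim probes and every probe tested on its own (chosen after seeing the data), and 2 under quantile normalization and in the fit on 4 arrays. Without doxycycline there was 1 under quantile normalization and 1 under cyclic loess, against 0 as reported. Median log2 fold changes moved under quantile normalization to 0.006 for doxycycline in the β line, 0.022 for both lines, 0.038 for the difference of the effect and 0.11 for δ against β with doxycycline, and under cyclic loess to 0.12 in the β line. Leaving out 1 array gave 0 to 1 calls for doxycycline in the δ line, for both lines, for the difference of the effect and for δ against β with doxycycline, 0 to 0 in the β line and 0 to 2 for δ against β without doxycycline. The medians then ranged from 0.04 to 0.18 in the δ line, 0.11 to 0.31 in the β line, 0.11 to 0.20 for both lines, -0.21 to -0.001 for the difference, -0.07 to 0.03 for δ against β with doxycycline and -0.007 to 0.20 without. With slide columns as a replicate block, 0 ribosomal protein genes passed for doxycycline in the δ line, the β line, both lines or their difference. The lowest adjusted p was 0.350, 0.236, 0.162 and 0.657 in limma in that order, and no count changed. Arrays of a column deviated together with r = 0.08 (δ) and 0.02 (β) over all genes, and -0.119 and 0.125 over the ribosomal protein genes. With 2 arrays per group, these values cannot decide whether arrays of a column share a culture or handling. Some alternatives could not be run as written: the files hold no gene name column, and normexp used the median rather than the mean spot signal. The cause of these changes was not tested.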
